A study of Mus musculus with 12 samples.

Results

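Embryoid bodies are floating aggregates in which mouse embryonic stem cells begin to differentiate. The arrays described here compare activin with SB431542 in embryoid bodies of a Smad4-null line. They are 4 of the 12 arrays of the series, 2 with activin (Smad4-null-ac) and 2 with SB431542 (Smad4-null-SB), and were taken by their labelled titles. The response is the mean log2 signal with activin minus that with SB431542, and it was computed for each of 18193 genes. The cells were of strain 129, grown without LIF, and were treated at day 2.5 for 2 h with activin at 50 ng/ml or with SB431542, labelled as 10 mM. An untreated group is not among the 6, so every difference can come from the added ligand, from the inhibitor or from both. The other 8 arrays hold the same pair of treatments in wild-type (WT) embryoid bodies and in embryoid bodies with a knock-down of Trim33 (Trim33-KD), with 2 arrays in each group. All 6 groups share the strain, the day and the culture. The labels name neither the number of clones behind a genotype nor the sequences that were targeted, and line and genotype change together. Whether replicates came from separate cultures is not stated, so a p-value here covers only the scatter of these arrays, which may be technical.

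Activin and nodal bind the same serine/threonine kinase receptors, which phosphorylate Smad2 and Smad3. These receptor-activated Smads join Smad4, the partner they share with the BMP pathway, and the complex acts at target genes together with factors such as Foxh1 and Eomes. Targets include feedback inhibitors (Smad7, Lefty1, Lefty2) and the genes of mesendoderm, the early precursor of mesoderm and endoderm. SB431542 blocks the type I receptors of activin, nodal and TGF-beta, and cells of this kind make nodal themselves.

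The Smad4 probe set was at 12.24 and 12.10 with SB431542 and at 12.16 and 12.16 with activin, against 11.90 to 12.03 in WT. Smad4 signal therefore does not check the label, and where its probe sets lie relative to the mutation was not given in the sources used here. Markers of pluripotent and epiblast cells defined the RNA, with Pou5f1 at a mean log2 signal of 12.85, Sox2 at 13.28 and Dnmt3b at 13.49 with SB431542. The summed linear signal of 7 epiblast markers was 49712 to 50055 with SB431542 and 48904 to 51906 with activin. That of 6 extraembryonic endoderm markers was 607 to 634 against 695 to 706, and that of 3 mesendoderm markers 286 to 293 against 390 to 515. Sums were 574 to 596 against 587 to 603 for 5 fibroblast markers and 138 to 143 against 157 to 182 for 5 trophectoderm markers. They were 415 to 474 against 475 to 485 for 4 neuroectoderm markers and 1375 to 1390 against 1369 to 1528 for 2 germ cell markers. Each of these sums lay far below that of the epiblast markers. In bulk RNA, fewer cells of a type and less RNA per cell cannot be told apart. Smad4-null-ac replicate 1 stands apart from the other arrays of its genotype: the SD of its log2 signals was 3.13 against 3.24 to 3.33, and 46.7% of its probe sets lay below a signal of 64 against 49.0% to 50.0%. WT-SB replicate 2 (SD 3.07) was the other array of narrow spread. Where leaving out Smad4-null-ac replicate 1 moved a Smad4-null response or list median by over 1.5 times, the value without it is given. Exceptions are cases where both values are below 0.2 in size.

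In Smad4-null embryoid bodies 2 of 18193 genes changed with activin relative to SB431542, and both fell. A gene is called here when limma's Benjamini-Hochberg adjusted p over all genes is under 0.05; 0.011% of genes were called lowered and 0% raised. Olfm2, which encodes a secreted olfactomedin-domain protein, was at 5.64 and 5.48 with SB431542 and at 3.66 and 3.44 with activin. Its response was -2.01 (SE 0.13, limma adjusted p = 0.0138), and it was -0.16 in WT and -0.44 in Trim33-KD. Plekhh3 was at 6.19 and 6.26 with SB431542 and at 4.42 and 4.59 with activin. Its response was -1.72 (SE 0.14, limma adjusted p = 0.0249), against -0.17 in WT and -0.25 in Trim33-KD. The groups of arrays do not overlap for either gene, but each has 1 probe set and, with activin, a signal below 64 on the linear scale. With all values below 64 set to 64, Olfm2 had a difference of 0 and Plekhh3 one of -0.22. Without Smad4-null-ac replicate 1 their differences were -2.12 and -1.63 and neither was called (limma adjusted p = 0.113 and 0.209). With quantile normalization 4 genes were called raised and 7 lowered. At an unadjusted p under 0.05, 960 genes (5.28%) were higher with activin and 279 (1.53%) lower. The split was 564 to 554 with quantile normalization and 645 to 562 with median centring. In a limma fit to the brighter 50% of genes (9096, by mean signal) 0 were called (smallest adjusted p = 0.204), with 423 at an unadjusted p under 0.05.

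A recognisable set of genes was higher with activin than with SB431542 in the other genotypes, and those genes were followed in Smad4-null. In the mean of the WT and Trim33-KD responses 14 genes rose (0.077% of all genes), and none of the arrays behind that mean is a Smad4-null array, although the spread in limma's test is pooled over all 12. In Smad4-null 0 of these 14 was called. For 12 of the 14, both activin arrays nonetheless lay above both SB431542 arrays, against 28.7% of all genes and 23.4% of the upper 50%. None had both activin arrays below both SB431542 arrays (15.1% of all genes). The difference was above 0 for 13 of 14, against 59.8% of all genes. An unadjusted p under 0.05 was reached by 9 of 14, against 5.28% of all genes in that direction. The pooled spread that helped choose the 14 also enters that p, and it holds the scatter of the Smad4-null arrays. All genes are therefore not a matched background for the counts of small p and of arrays without overlap. The median response of the 14 was 0.56 in Smad4-null, 1.64 in WT and 1.61 in Trim33-KD, and that of all genes in Smad4-null was 0.06. Without Smad4-null-ac replicate 1 the Smad4-null median was 0.64, and without Smad4-null-ac replicate 2 it was 0.47. With each array centred on its median it was 0.40, where the median of all genes was -0.10, a shift of more than 0.1. The size in WT and Trim33-KD chose the genes, so their larger median there is partly a product of that choice. In the same mean 2 genes fell (0.011%), Krt84 (-2.001), a keratin, and Ccl20 (-3.92), a chemokine, and in Smad4-null they had 0.75 and 0.42 at signals outside the upper 50%; Ccl20 had -0.46 without Smad4-null-ac replicate 1.

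**Figure D1:**
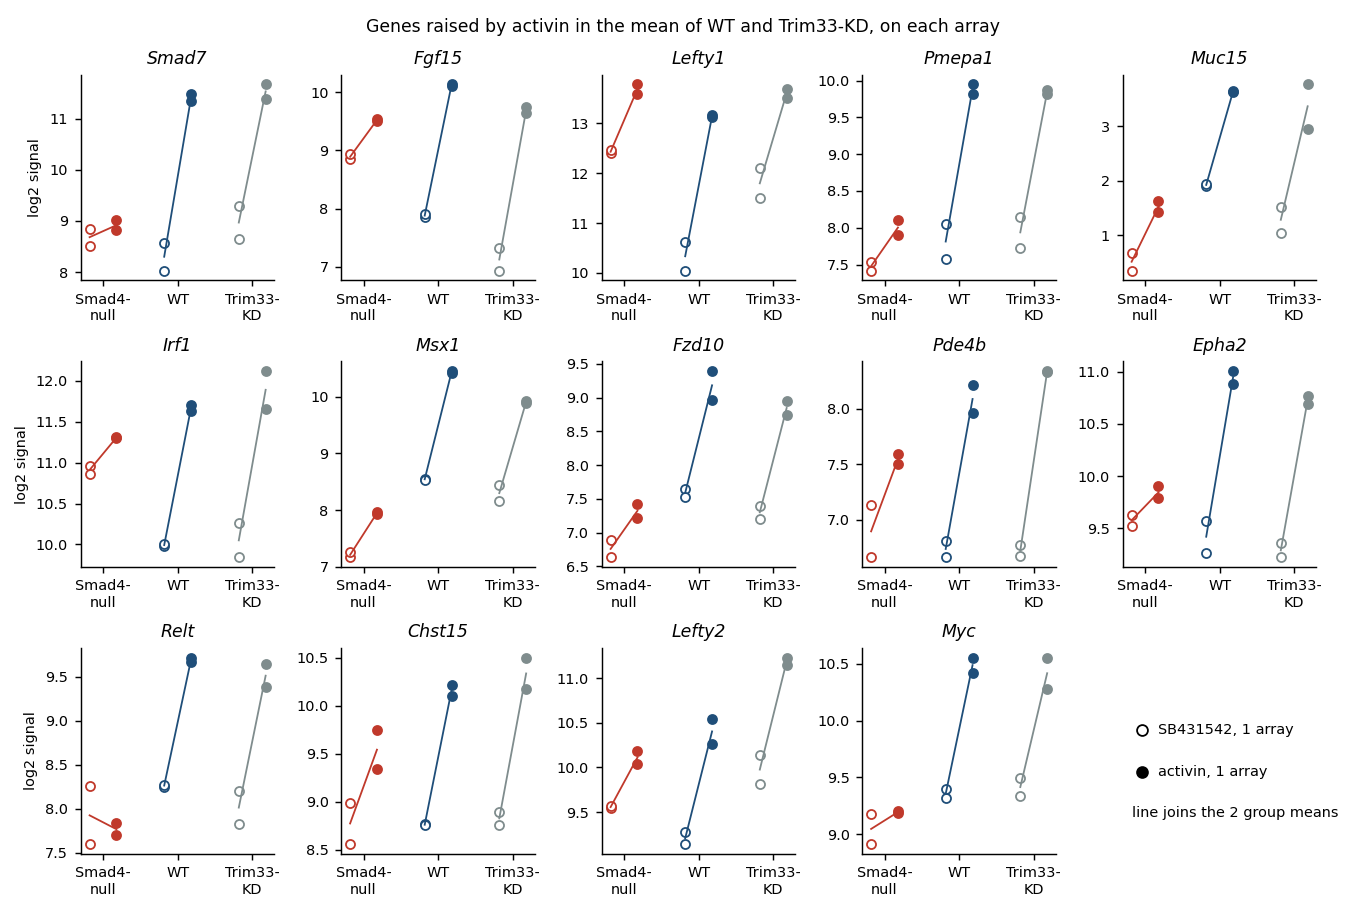
Log2 signal (vertical axis) of the 14 genes higher with activin than SB431542 in the mean of WT and Trim33-KD, in order of that mean. Each circle is 1 array (open for SB431542, filled for activin) and lines join group means (n = 2). Each panel has its own scale. In Smad4-null the filled circles lie above the open ones for 12 genes, while for Smad7 and Relt they overlap.

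Of the 14 genes Lefty1 had the largest Smad4-null difference. Lefty1, a secreted inhibitor that blocks nodal and its co-receptor, was at 12.40 and 12.46 with SB431542 and at 13.79 and 13.58 with activin. The response was 1.26 (2.39-fold, SE 0.24, 95% interval 0.69 to 1.83, limma adjusted p = 0.311), while it was 2.81 in WT and 1.81 in Trim33-KD. The SB431542 level of Lefty1 was already higher than in WT (10.62 and 10.05), and the level with activin exceeded that of WT with activin (13.16 and 13.13). Lefty2, its close relative, was at 9.55 and 9.56 with SB431542 and at 10.04 and 10.18 with activin. Its response was 0.56 (SE 0.15, limma adjusted p = 0.551), against 1.20 in WT and 1.21 in Trim33-KD. For both genes the Smad4-null arrays do not overlap between treatments.

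Smad feedback inhibitors were represented by Smad7 and Pmepa1. Smad7, the inhibitory Smad that recruits ubiquitin ligases to the activated receptor, was at 8.52 and 8.85 with SB431542 and at 8.82 and 9.02 with activin. The arrays of the treatments overlap, and the response was 0.23 (SE 0.27, 95% interval -0.40 to 0.87, limma adjusted p = 0.897) against 3.11 in WT and 2.56 in Trim33-KD. Its second probe set, dimmer, gave -0.33. Pmepa1, a membrane protein that restrains Smad2 and Smad3, was at 7.42 and 7.54 with SB431542 and at 7.90 and 8.10 with activin. Its response was 0.52 (SE 0.20, limma adjusted p = 0.665) against 2.08 in WT and 1.91 in Trim33-KD. Of the other probe sets of Pmepa1 the brighter gave 0.40 and the dimmest, at a mean log2 signal of 3.06, gave -0.62.

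Secreted and cell-surface signalling genes gave responses between these extremes. Fgf15, a secreted fibroblast growth factor, was at 8.84 and 8.93 with SB431542 and at 9.50 and 9.54 with activin. Its response of 0.63 (SE 0.14, limma adjusted p = 0.396) compares with 2.24 in WT and 2.56 in Trim33-KD. The SB431542 arrays of Fgf15 lay above those of WT (7.85 and 7.91) and of Trim33-KD (7.32 and 6.94), and its activin arrays below those of both. Epha2, a receptor tyrosine kinase for ephrins, was at 9.53 and 9.63 with SB431542 and at 9.79 and 9.90 with activin. Its response was 0.27 (SE 0.14, limma adjusted p = 0.777) against 1.53 in WT and 1.44 in Trim33-KD. Fzd10, a Wnt receptor, was at 6.89 and 6.63 with SB431542 and at 7.22 and 7.43 with activin. Its response was 0.57 (SE 0.18, limma adjusted p = 0.604), against 1.59 in WT and 1.55 in Trim33-KD.

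Msx1, a homeobox repressor best known as a BMP target, had the smallest p of the 14 in Smad4-null. It was at 7.16 and 7.26 with SB431542 and at 7.93 and 7.96 with activin. Its response was 0.74 (1.67-fold, SE 0.12, 95% interval 0.46 to 1.01, limma adjusted p = 0.189), against 1.89 in WT and 1.61 in Trim33-KD. The second probe set of Msx1 gave 0.76 (SE 0.25). All Smad4-null values of Msx1 lay below the WT arrays with SB431542 (8.55 and 8.53). Irf1, an interferon-regulated transcription factor, was at 10.95 and 10.87 with SB431542 and at 11.31 and 11.30 with activin, a response of 0.40 (SE 0.19) against 1.68 in WT. Myc, a growth-promoting transcription factor, was at 9.18 and 8.91 with SB431542 and at 9.19 and 9.20 with activin. Its response was 0.15 (SE 0.15) against 1.13 in WT and 1.001 in Trim33-KD, and its highest SB431542 array lay within 0.01 of its lowest activin array.

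Of the remaining 4 genes, Pde4b, a cyclic AMP phosphodiesterase, was at 7.13 and 6.66 with SB431542 and at 7.505 and 7.588 with activin (response 0.65, SE 0.17). Its 5 dimmer probe sets gave values from -1.07 to 2.46. Chst15, a sulfotransferase that modifies chondroitin sulfate, was at 8.99 and 8.56 with SB431542 and at 9.34 and 9.75 with activin (response 0.77, SE 0.20), and its second probe set gave 0.73. Muc15, a membrane mucin, stood at log2 signals of 0.35 to 1.62, among the dimmest of all genes, and its response of 1.01 is read from values far below 64 on the linear scale. Relt, a member of the TNF receptor superfamily, was the exception in direction. It was at 7.59 and 8.25 with SB431542 and at 7.70 and 7.83 with activin, so the activin arrays lie between the SB431542 arrays, and the response was -0.16 (SE 0.23) against 1.43 in WT and 1.501 in Trim33-KD.

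Promoter windows from RefSeq (build GRCm38.p6) were listed for 7 of the 14 genes, 12 windows in all. Those of Msx1, Epha2 and Fzd10, which each have a single listed start, are shown because these genes rose together in WT and Trim33-KD and had unequal responses in Smad4-null (0.74, 0.27 and 0.57). Each sequence is the 250 bases before the start, read 5′ to 3′ on the strand of the gene. Msx1 lies at chr5:37824586-37824835 on the minus strand, Epha2 at chr4:141300971-141301220 on the plus strand and Fzd10 at chr5:128600856-128601105 on the plus strand. Capitals mark matches on either strand to CAGAC, the short Smad box, to its palindromic form GTCTAGAC, to AATNNACA, the Foxh1 site, or to GGCGCC, a GC-rich Smad motif.
Msx1: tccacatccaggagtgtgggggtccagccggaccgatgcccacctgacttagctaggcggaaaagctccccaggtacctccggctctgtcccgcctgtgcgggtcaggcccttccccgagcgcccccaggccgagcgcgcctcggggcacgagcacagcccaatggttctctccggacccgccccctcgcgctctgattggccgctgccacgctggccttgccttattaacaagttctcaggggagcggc
Epha2: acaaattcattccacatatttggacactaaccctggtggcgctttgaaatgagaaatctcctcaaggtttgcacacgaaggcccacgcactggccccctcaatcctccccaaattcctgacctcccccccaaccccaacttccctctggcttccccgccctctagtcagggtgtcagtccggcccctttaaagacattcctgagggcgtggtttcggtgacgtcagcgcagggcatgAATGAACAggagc
Fzd10: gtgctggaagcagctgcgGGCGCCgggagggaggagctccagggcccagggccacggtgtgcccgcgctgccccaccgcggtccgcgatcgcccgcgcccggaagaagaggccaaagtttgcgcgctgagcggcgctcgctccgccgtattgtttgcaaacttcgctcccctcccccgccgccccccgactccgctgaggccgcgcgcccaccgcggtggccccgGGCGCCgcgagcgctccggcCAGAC
The Msx1 window holds none of these letters. The Epha2 window holds 1 match to AATNNACA, at -13. The Fzd10 window holds 2 matches to GGCGCC, at -232 and -25 relative to the start, and 1 to CAGAC at -5. Over 32851 windows of the same length in the table, 42.2% hold CAGAC, 10.9% AATNNACA, 9.59% GGCGCC and 0.167% GTCTAGAC. A match is a description of letters and not a binding site.

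Whether the Smad4-null response differs from that of the other genotypes was tested as a difference of differences across all genes. Over all 18193 genes limma called 0 for Smad4-null minus the mean of WT and Trim33-KD (smallest adjusted p = 0.0939, 1530 genes at an unadjusted p under 0.05) and 0 for Smad4-null minus WT (smallest adjusted p = 0.226, 1317 genes). Within the upper 50% of mean signal, 7 genes (0.077%) were called for the first of these and 4 (0.044%) for the second, and all of them had the smaller response in Smad4-null. The 7 were Smad7, Fgf15, Relt, Pmepa1, Irf1, Epha2 and Msx1, and the 4 were Smad7, Fgf15, Epha2 and Msx1. By the fit over all genes the difference was -2.60 for Smad7 (95% interval -3.38 to -1.82), -1.77 for Fgf15 (-2.17 to -1.38) and -1.01 for Msx1 (-1.35 to -0.68). For Lefty1 it was -1.05 (-1.75 to -0.35, limma adjusted p = 0.472 in the upper 50%), and for Lefty2 -0.65 (-1.09 to -0.21, adjusted p = 0.507), neither of them called. As a share of the log2 response in the other genotypes, the Smad4-null response was 8.27% for Smad7, 17.98% for Epha2, 26.3% for Fgf15, 42.1% for Msx1, 46.2% for Lefty2 and 54.5% for Lefty1. The median share was 31.2% over the 14 genes, and their choice by the response in WT and Trim33-KD makes such shares partly smaller.

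**Figure D2:**
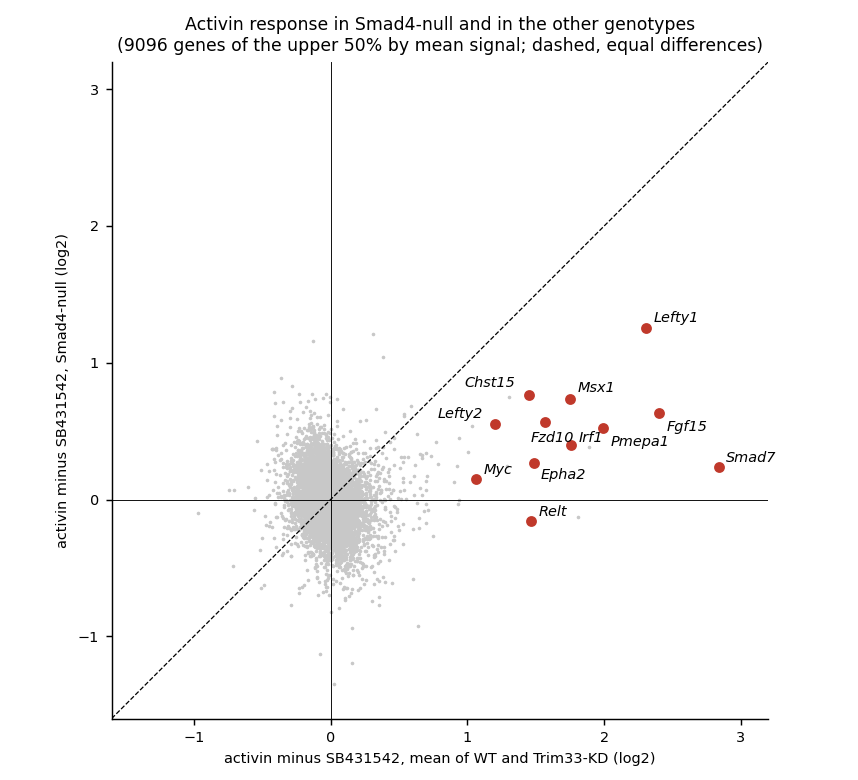
Activin minus SB431542 (log2) in Smad4-null (vertical axis) against the mean of WT and Trim33-KD (horizontal axis) for 9096 genes, the upper 50% by mean signal; red points are the 12 of the 14 raised genes that lie in that range, and the dashed line marks equal differences. All red points lie below the line, from Lefty1 at 1.26 down to Relt at -0.16 in Smad4-null.

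The limma fit to the upper 50% gave a wider set of raised genes. In that fit 46 genes (0.506%) were raised in the mean of WT and Trim33-KD. In Smad4-null, both activin arrays lay above both SB431542 arrays for 30 of the 46 (background 23.4%) and below them for 0 (background 20.1%). The pooled spread that helped choose the 46 holds the scatter of the Smad4-null arrays, so these backgrounds are not matched. The median response was 0.26 in Smad4-null and 0.78 in the mean of the other genotypes, and the median of the upper 50% in Smad4-null was 0.01. Without Smad4-null-ac replicate 1 the Smad4-null median was 0.28. Nodal, Nrarp and Fgf8 stood among the larger Smad4-null responses. Nanog (-0.03, WT 0.66), the pluripotency homeobox gene, and Ccn1 (0.00, WT 0.65), a matrix protein, stood near 0. The share of the other genotypes' log2 response ran from -34.3% (Dennd2c) to 117% (Nrarp), with a median of 26.3%, and 11 of the 46 had at least 50%. The response in WT and Trim33-KD chose the 46, which makes such shares partly smaller. The genes named in these sentences were picked after their values were seen. In the same fit 4 genes (0.044%) fell; among them Txnip, an inhibitor of thioredoxin, had -0.49 in Smad4-null, -0.76 in WT and -0.67 in Trim33-KD, and the median of the 4 in Smad4-null was 0.05.

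Among ligands, Nodal was at 10.88 and 10.85 with SB431542 and at 11.37 and 11.32 with activin. Its response was 0.48 (SE 0.19, limma adjusted p = 0.704), close to 0.55 in WT and 0.71 in Trim33-KD, and the difference from their mean was -0.15 (95% interval -0.71 to 0.40). The co-receptor Tdgf1 was at 12.41 and 12.47 against 12.20 and 12.44, a response of -0.12, and the nodal partner Gdf3 had 0.17. Fst, the activin-binding follistatin, was at 7.78 and 7.40 with SB431542 and at 7.997 and 8.19 with activin, against 12.54 and 12.81 in WT with SB431542. Cer1, a secreted nodal antagonist, stayed between 3.72 and 4.17 on all 4 arrays, below 64 on the linear scale. Of 13 measured nodal ligands, antagonists and convertases 0 were called, 7 had activin arrays wholly above the SB431542 arrays and 0 wholly below, against 28.7% and 15.1% of all genes. The median was 0.37 (0.21 without Smad4-null-ac replicate 1 and 0.17 with quantile normalization).

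Receptors and transducers showed small values. Of 19 measured, 0 were called and the responses ran from -0.27 (Smad1, a BMP-branch Smad) to 0.44 (Trim28, a relative of Trim33), with a median of 0.10 (-0.01 without Smad4-null-ac replicate 1). Trim28 was at 13.63 and 13.72 with SB431542 and at 14.38 and 13.85 with activin, so 0.17 remained without Smad4-null-ac replicate 1. Smad2 (0.05), Smad3 (-0.10), Foxh1 (-0.06) and the type I receptor gene Acvr1b (0.10) were each within their standard error of 0. Of 13 Smad feedback genes 0 were called. Smad6 had -0.03 in Smad4-null (0.39 without Smad4-null-ac replicate 1) against 0.996 in WT, Skil, a Smad co-repressor, 0.13 against 0.31 and Bambi, a decoy receptor, -0.21 (-0.07 without that array) against 0.38. Ldlrad4, a Smad-binding feedback gene, gave 1.71 from log2 signals of 2.78 to 5.54, against -1.496 in WT. The median of the feedback list was 0.13 in Smad4-null (0.20 without Smad4-null-ac replicate 1 and 0.07 with quantile normalization) and 0.14 in WT.

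**Figure D3:**
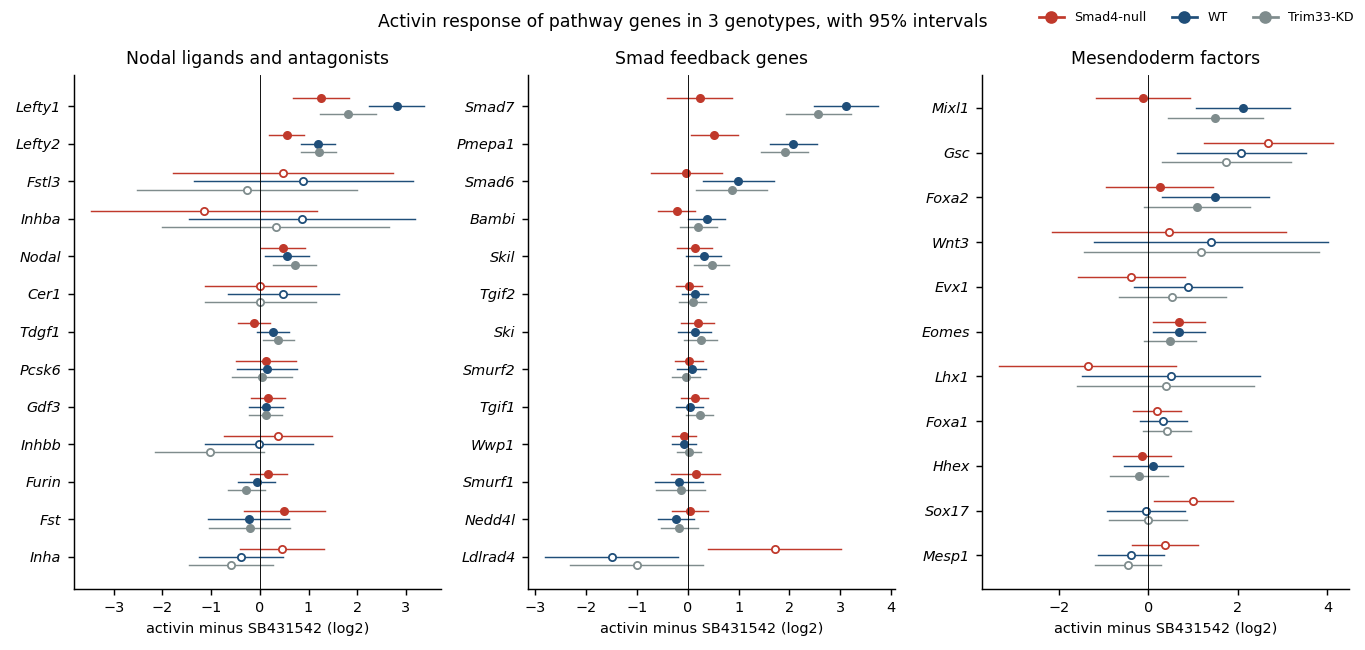
Activin minus SB431542 (log2, horizontal axis) of nodal ligands and antagonists, Smad feedback genes and mesendoderm factors in Smad4-null (red), WT (blue) and Trim33-KD (grey), with 95% intervals of the limma fit (n = 2 arrays per group); open circles are genes outside the upper 50% of mean signal. Smad7 and Mixl1 have Smad4-null intervals that include 0 and lie away from those of WT, while those of Nodal and Eomes overlap WT.

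None of the measured mesendoderm transcription factors was called in Smad4-null, and their values varied widely. Mixl1, a homeobox gene of the primitive streak, was at 6.23 and 5.83 with SB431542 and at 6.31 and 5.49 with activin. Its treatments overlap, and the response was -0.13 (SE 0.45; -0.54 without Smad4-null-ac replicate 1), while the WT arrays of Mixl1 were at 9.17 and 9.17 with SB431542 and at 11.22 and 11.35 with activin (2.12). Eomes, a T-box factor that acts with Smads, was at 7.74 and 7.80 with SB431542 and at 8.56 and 8.35 with activin. Its response of 0.69 (SE 0.25, limma adjusted p = 0.648) matches 0.69 in WT, at a level far below the WT arrays with SB431542 (11.49 and 11.36). Gsc, the organizer homeobox gene, was at 2.00 and 2.74 against 5.85 and 4.25, a response of 2.68 (limma adjusted p = 0.418). Those signals are all below 64 on the linear scale, where the floor of 64 leaves 0. Of 11 measured mesendoderm factors 0 were called in Smad4-null, and 5 had activin arrays wholly above and 1 wholly below, against 28.7% and 15.1% of all genes. The median was 0.25 in Smad4-null, 0.69 in WT and 0.48 in Trim33-KD. With quantile normalization the Smad4-null median was 0.04, and over the 4 members in the upper 50% it was 0.06. T is not analysed here.

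Targets of neighbouring pathways were read the same way. Of 11 BMP targets 0 were called in Smad4-null and the median was 0.27 (0.16 without Smad4-null-ac replicate 1), against 0.48 in WT and 0.65 in Trim33-KD. Id1, an inhibitor of basic helix-loop-helix factors, was at 7.79 and 6.999 against 7.64 and 8.23, so its treatments overlap (0.54, and 0.83 without Smad4-null-ac replicate 1), and its SB431542 arrays in WT stood at 10.43 and 10.48. Of 13 FGF and ERK targets 0 were called and the median was -0.02. Fgf8, a secreted growth factor of the primitive streak, was at 7.61 and 7.26 with SB431542 and at 8.22 and 8.16 with activin (0.75, SE 0.31), while Dusp6, an ERK phosphatase, had -0.34. Of 10 Notch pathway genes 0 were called. Nrarp, a feedback inhibitor of Notch, was at 7.74 and 7.83 against 8.45 and 8.38 (0.63, SE 0.13, limma adjusted p = 0.374), compared with 0.79 in WT and 0.28 in Trim33-KD. Hes1, a Notch-regulated repressor, had 0.38 (SE 0.44) against 2.14 in WT.

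The remaining lists held no called gene, and their medians lay between -0.17 and 0.27 (between -0.10 and 0.39 without Smad4-null-ac replicate 1). The 8 core pluripotency genes had a median of 0.11 (0.04 without Smad4-null-ac replicate 1), with Pou5f1 at 0.10 and Sox2 at -0.19. Of 11 p53 targets 0 had a difference above 0, against 52.0% of the upper 50% of genes, and the median was -0.17 (-0.10 without Smad4-null-ac replicate 1). The lowest value was -0.29 (Sesn2, -0.10 without that array), and 3 of the 11 had both activin arrays below both SB431542 arrays, against 20.1% of the upper 50%. Abundant genes of glycolysis were highest on Smad4-null-ac replicate 1: Aldoa, an aldolase, was at 13.72 and 13.88 with SB431542 and at 14.48 and 13.93 with activin. Its response of 0.40 became 0.13 without that array. Ccne1, which encodes cyclin E1, was at 12.99 and 12.96 with SB431542 and at 10.52 and 13.04 with activin, so its response of -1.19 rests on Smad4-null-ac replicate 1 alone.

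**Figure D4:**
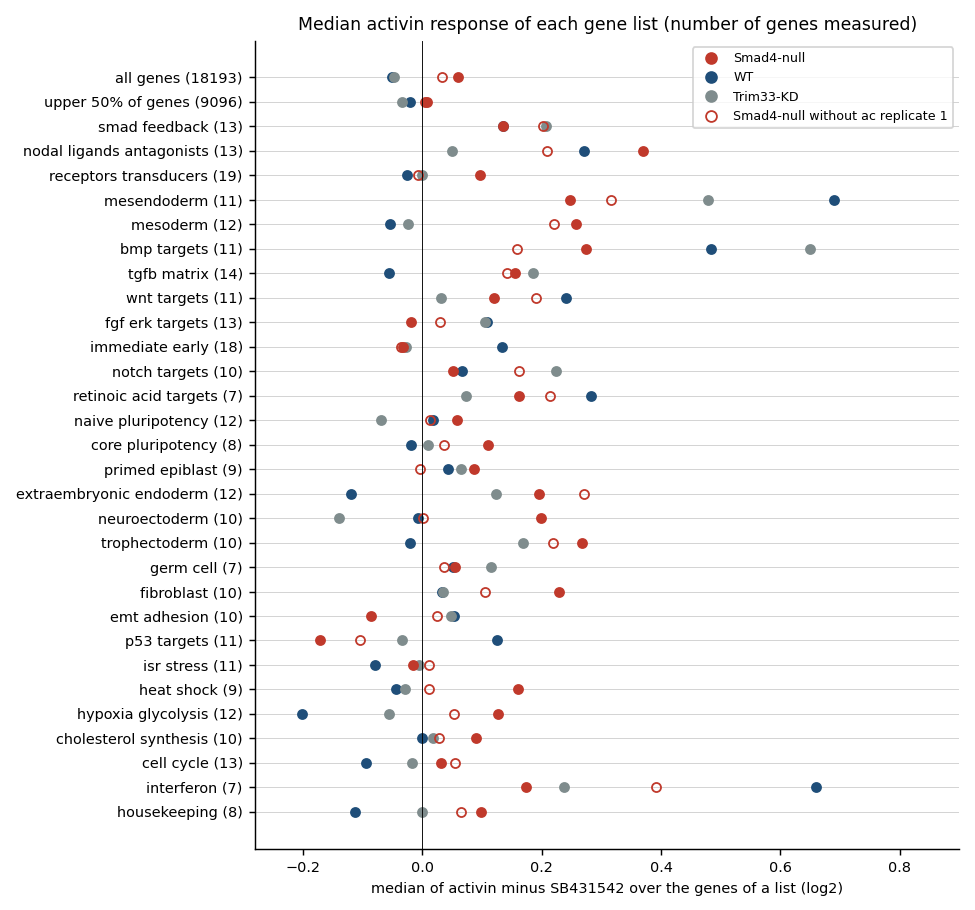
Median activin minus SB431542 (log2, horizontal axis) over the measured genes of each list, in Smad4-null (red), WT (blue) and Trim33-KD (grey), with Smad4-null without ac replicate 1 as open red circles and the medians of all genes in the top rows. The Smad4-null median lies below WT for several lists, among them interferon genes (0.17 against 0.66) and mesendoderm factors (0.25 against 0.69). The interferon median, over 7 genes with 2 in the upper 50%, is 0.39 without Smad4-null-ac replicate 1 and -0.04 with quantile normalization. With quantile normalization the mesendoderm median in Smad4-null is 0.04. The Smad4-null median also lies below WT for p53 targets (-0.17 against 0.13), where it is lowest, and BMP targets (0.27 against 0.48). For BMP targets it is 0.16 without Smad4-null-ac replicate 1. Other lists lie above WT, such as nodal ligands and antagonists (0.37 against 0.27). That Smad4-null median is 0.21, below WT, without Smad4-null-ac replicate 1, and 0.17 with quantile normalization.

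Outside these lists, the largest differences among genes of the upper 50% whose arrays do not overlap are given as a description, since size chose them. Lefty1 had the highest. The next were Kcnj11 (1.21), a potassium channel subunit, Dnajb5 (1.16), a co-chaperone, Cabp7 (1.04), a calcium-binding protein, and Atp2a3 (0.89), a calcium pump. Kcnj11 was at 6.71 and 7.996 with SB431542 and at 8.91 and 8.21 with activin, and its value was 0.57 if Smad4-null-SB replicate 1 is dropped and 1.85 if the other SB431542 array is. The second, dimmer probe set of Atp2a3 gave -0.94, and the mean of its probe sets -0.03. Cabp7 was at 5.64 and 5.90 with SB431542 and at 6.78 and 6.86 with activin, against 8.79 and 9.09 in WT with SB431542. Dnajb5 was at 7.06 and 6.70 against 7.72 and 8.35, and its other probe sets gave 0.49 and 0.23. Plekhn1 (0.83), 1810044D09Rik (0.78), Cplx2 (0.78), 3110021A11Rik (0.77) and Tnks1bp1 (0.77) followed. The value of 1810044D09Rik was 0.45 without Smad4-null-ac replicate 1, and its second probe set gave -0.02. The dimmest of 3 probe sets of Cplx2 gave -0.55. The WT responses of these 9 genes ran from -0.55 (1810044D09Rik) to 0.54 (Cabp7).

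The 10 lowest were Rtl8c (-1.34), Mapk8ip2 (-1.13), Rnpep (-0.94), Kif26a (-0.92), Scoc (-0.82), Prelid3a (-0.79), Triml1 (-0.77), Trim23 (-0.77), Ccdc120 (-0.74) and Fbxo34 (-0.73). Mapk8ip2, a scaffold of JNK signalling, was at 7.86 and 7.80 with SB431542 and at 6.41 and 7.002 with activin. Its other 4 probe sets gave the opposite sign, from 0.18 to 0.49. Rtl8c, a gene derived from a retrotransposon, was at 5.12 and 4.86 against 3.06 and 4.23, far below its WT arrays with SB431542 (9.74 and 9.06). Those Smad4-null signals of Rtl8c are all below 64 on the linear scale, where the floor of 64 leaves 0. Its mean signal reached the range ranked here only through the WT and Trim33-KD arrays. Scoc was at 10.16 and 9.86 against 8.77 and 9.60, and its second probe set gave -0.18. Without Smad4-null-ac replicate 1 the values were -0.76 for Rtl8c, -0.53 for Rnpep, -0.41 for Scoc and -0.43 for Trim23. The dimmer probe sets of Trim23 gave -0.13 and 0.52. Prelid3a was at 9.29 and 8.35 with SB431542 and at 7.83 and 8.23 with activin, and its second probe set gave -0.05. Ccdc120 (7.86 and 7.94 against 7.09 and 7.24) and Fbxo34 (10.06 and 9.75 against 9.04 and 9.30) were lower on both activin arrays by similar amounts.

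The size of a difference depended on the signal. In the dimmest of 4 equal bins of mean signal the median Smad4-null response was 0.45, and in the next bins it was 0.17, -0.01 and 0.02. The median size regardless of sign fell from 0.74 to 0.32, 0.12 and 0.09. The activin replicates differed from each other by medians of 0.84, 0.37, 0.16 and 0.12 in the same bins. The SB431542 replicates differed by 0.73, 0.27, 0.12 and 0.07. Differences above 2-fold with arrays that do not overlap and activin higher numbered 980, 268, 3 and 1. The dimmest bin moved the other way in WT (median -0.27) and Trim33-KD (-0.13). Lgr5, a receptor for R-spondins and a Wnt target, shows the pattern: it was at 1.77 and 2.60 with SB431542 and at 5.66 and 4.92 with activin (3.10, limma adjusted p = 0.104), all below 64 on the linear scale.

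**Figure D5:**
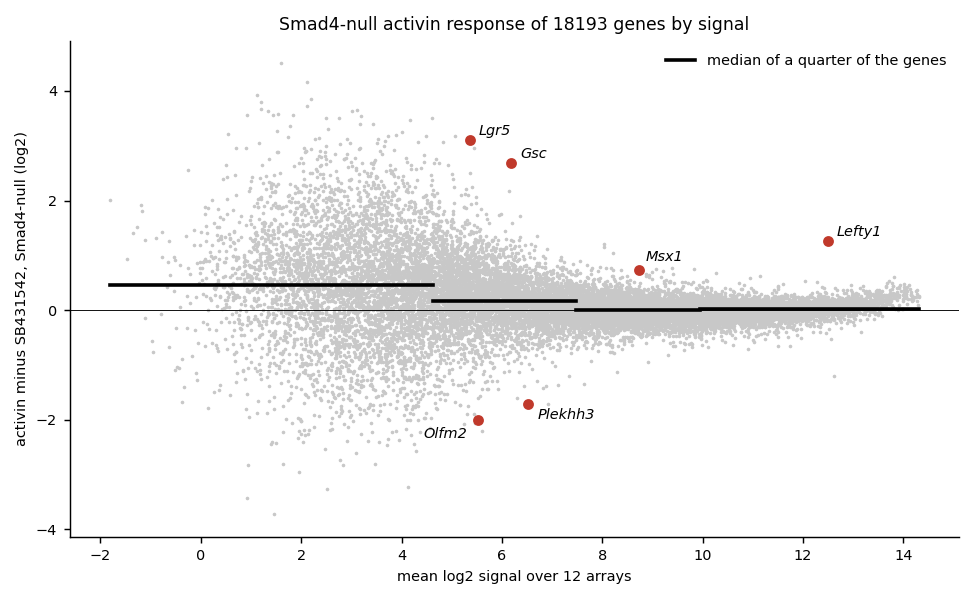
Activin minus SB431542 in Smad4-null (log2, vertical axis) against the mean log2 signal over 12 arrays (horizontal axis) for 18193 genes; black lines are the medians of the 4 signal bins and red points are named genes. The cloud is wide and shifted upward at low signal (median 0.45) and narrow at high signal, where Lefty1 stands clear of it.

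Across the 9096 genes of the upper 50%, which are not independent replicates, the Smad4-null response had a Pearson correlation of -0.19 with the WT response (Spearman -0.30) and of 0.00 with the Trim33-KD response (Spearman -0.05). The WT and Trim33-KD responses correlated at 0.50 (Spearman 0.30). These pairs share no array, but Smad4-null with activin and WT with SB431542 each hold 1 array of narrow spread, and the part of that spread in the correlations was not tested.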

How the data were processed

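RNA of 12 embryoid body samples was hybridised to Affymetrix mouse arrays, 1 array per sample. The authors deposited 1 log2 signal for each probe set of an array, per the labels. On the linear scale these signals have a mean of 500 on every array after 2% is trimmed from either end. The submitters' processing notes name limma; how probes were summarized was not given in the sources used here. The log2 values were used unchanged, so the number of arrays, not depth, sets the precision.

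Of 45101 probe sets 64 are controls, 34945 carry exactly 1 symbol, 932 several and 9160 none. Each of 18193 genes was represented by whichever probe set was brightest on average over the 12 arrays. Limma 3.58.1 in R 4.3.3 fitted 1 mean per group to all 12 arrays (6 residual degrees of freedom, default eBayes), with Benjamini-Hochberg adjustment over all genes and a threshold of 0.05. The fit was tested on simulated data. Figures used Python 3.11.15 and matplotlib 3.10.9.

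The members, the 29 gene lists and the alternatives were chosen with earlier results of these data known. The rule names Smad4, every called gene, the 10 highest and 10 lowest Smad4-null differences of the upper 50% whose arrays do not overlap, up to 15 genes called in the mean of WT and Trim33-KD, all members of the nodal, Smad feedback and mesendoderm lists, and up to 4 bright members of each other list; further list members were named after their values were seen. Same-numbered arrays were not taken as pairs. Over the upper 50% of genes the correlation of their deviations was -0.19 in Smad4-null, 0.39 in WT and 0.34 in Trim33-KD. Over all genes it was -0.008, -0.03 and 0.05. These values do not settle whether the arrays were paired, and a replicate block was run as an alternative. The alternatives changed the scaling (quantile, or each array's median), the genes tested (the brighter 50% or 75%, or each probe set), the value of a gene (averaged probe sets, or a floor of 64), limma's prior (trended and robust), the weights of arrays, the replicate block, and the arrays in the fit.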

Additional observations from a re-analysis of the deposited data

Results flagged for a closer look

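The Smad4-null response differed from that of the other genotypes, by limma's test of the difference within the upper 50% of mean signal, for 7 genes against the mean of WT and Trim33-KD and for 4 against WT. Against the mean of WT and Trim33-KD the differences were -1.77 for Fgf15 (SE 0.16, adjusted p = 0.0021), -2.60 for Smad7 (SE 0.28, 0.00843), -1.22 for Epha2 (SE 0.15, 0.0237) and -1.01 for Msx1 (SE 0.14, 0.037). Those of Pmepa1 (-1.47), Irf1 (-1.36) and Relt (-1.63) each had a limma adjusted p of 0.0452. Against WT alone they were -1.61 for Fgf15 and -2.88 for Smad7 (limma adjusted p = 0.0129 each) and -1.15 for Msx1 and -1.26 for Epha2 (0.0488 each). Over all 18193 genes none of these passed: the limma adjusted p ran from 0.0939 to 0.205 for the first comparison and from 0.226 to 0.264 for the second.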

How the results depend on the processing

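The 2 genes called in the Smad4-null response became 11 with quantile normalization (4 raised, 7 lowered, both genes among them), 11 with a floor of 64 (all raised, none shared), 9 with array weights, and 0 in the upper 50%, with every probe set, with a trended robust prior and with only the groups compared (limma; 423, 2943, 1212 and 1539 at an unadjusted p under 0.05). Leaving out 1 array gave 0 to 6. The count was 6 when Smad4-null-ac replicate 2 was dropped and 1 when a Trim33-KD-SB array was, while it was 0 when either Smad4-null-SB array, Smad4-null-ac replicate 1, or an activin array of WT or Trim33-KD was dropped. Without both arrays of narrow spread it was 3, none shared. Smad4-null minus WT, 0 genes, gave 3 with quantile normalization, 4 in the upper 50%, 11 with the floor and 2 with the trended robust prior; leaving out 1 array gave 0 each time. Smad4-null minus the mean of WT and Trim33-KD, 0 genes, gave 3 with quantile normalization, 7 in the upper 50%, 3 in the upper 75%, 15 with the floor and 4 with the trended robust prior, and 0 without any single array; only the groups compared is all arrays there. The cause of these changes was not tested, except that the smaller sets test fewer genes. With the replicate number as a block the counts were 2, 0 and 0; with crossed numbers in Smad4-null-ac, chosen after seeing the data, they were 2, 0 and 0. With 1 value per gene, Lefty1, Lefty2, Msx1, Fgf15, Pde4b, Chst15, Fzd10, Irf1, Epha2 and Pmepa1 kept their sign in each alternative run. Lefty1 ranged from 1.10 to 1.36 and Msx1 from 0.58 to 0.78. Among single probe sets, a dim one of Pmepa1 (-0.62) and a dim one of Pde4b (-1.07) had the other sign. In each of the 4 signal bins the median difference between activin replicates exceeded the median size of the response. That between SB431542 replicates was below it in each bin (0.73, 0.27, 0.119 and 0.07 against 0.74, 0.32, 0.124 and 0.09). A response compares means of 2 arrays and a replicate difference compares single arrays, so these sizes are not like for like. The share of scatter in the responses was not tested.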
